A study of Bombus terrestris with 8 samples.

Results

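miR-279 and miR-996 are insect microRNAs (miRNAs), RNAs of about 22 bases that pair with messenger RNAs and lower the output of the messengers they pair with. They were chosen by name from the predicted miRNAs of the bumblebee Bombus terrestris, and each name had 1 row, so that they made up 2 of 123 rows in the table (111 distinct mature sequences). The study sequenced small RNAs of female larvae on the queen pathway to ask how miRNAs change across larval instars and between castes. The late-instar group held pools of whole queen-destined larvae of the fourth instar (libraries LQ1, LQ3 and LQ4), and the early-instar group held pools from the first or the second instar (EQ1 to EQ4). Every pool came from a single colony whose queen had been removed to bring about queen rearing, and no other treatment is given for either group. Library EQ2 was left out of the main comparison, as in the study, and its values are given beside the others, while LQ2 was not analysed here. The study excluded both after checking its normalization, since they differed from the other replicates, above all in longer reads. By its account such reads took sequencing space from shorter ones, a technical difference.

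In Drosophila, miR-279 and miR-996 lie next to each other in the genome and share a seed, the bases near the 5′ end by which a miRNA recognizes most of its targets. There they act together to keep CO2-sensing neurons and sensory bristle lineages in order, in part by repressing the transcription factor gene nerfin-1, and they also act in the rest-activity rhythm and in the ovary through the JAK/STAT pathway. These roles come from the fly. The bee libraries were made from whole bodies, so the neural setting that gives the cluster its name could not be checked against a tissue, and fewer cells of a type cannot be told apart from less of the miRNA per cell.

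The mature sequences of both members are shown first, because the shared seed and the bases that differ decide which reads can be told apart. Capitals mark the seed, bases 2 to 8, and T stands for U as in the deposited table.
miR-279: tGACTAGAtccacactcattaa
miR-996: tGACTAGAtacatactcgtcta
The first 9 bases of the pair were the same. They differed at 5 of 22 positions, A10C, T13C, G18A, C20T and T21A, counted from the 5′ end with the base of miR-996 first and that of miR-279 last. Both had a GC content of 36.4%.

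The same seed stood in 3 other distinct sequences, which lay on other scaffolds and are printed to show how close they come to the cluster.
miR-279a: tGACTAGAtccacactcatcca
miR-279b: tGACTAGAtcgaaatactcgtc
miR-279c: tGACTAGAgtcacactcgtcca
The heptamer GACTAGA was thus found in 5 of 111 distinct sequences, and nowhere but at bases 2 to 8. The 111 sequences had 96 different seeds, and 5 was the size of the biggest seed group, reached by 2 groups. The nearest relative of miR-279 was miR-279a, with the first 19 bases in common and only T20C and A21C between them (miR-279 first). The authors aligned reads to known insect miRNAs with up to 2 mismatches, so a read of miR-279 and a read of miR-279a could have been counted under either name, and the split between these 2 is uncertain. miR-996 stood 4 positions away from miR-279a and from miR-279c and 9 from miR-279b. Outside the seed family the closest sequences differed from miR-279 at 12 positions or more and from miR-996 at 13 or more.

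Both precursors lay on the minus strand of scaffold Group5.1 of the B. terrestris genome v.1.0. They are shown whole, with the mature miRNA in capitals, since their spacing and shape define the cluster.
miR-279: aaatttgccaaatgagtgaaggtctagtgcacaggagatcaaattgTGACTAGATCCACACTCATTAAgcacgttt
miR-996: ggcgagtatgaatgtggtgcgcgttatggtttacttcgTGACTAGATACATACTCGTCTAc
The miR-279 precursor occupied Group5.1:7184475-7184550 (76 bases) and that of miR-996 Group5.1:7184273-7184333 (61 bases). The cluster spanned 278 bases, with 141 bases between the precursors, and along the minus strand miR-279 came upstream of miR-996. In both, the listed miRNA was on the 3′ arm, at precursor bases 47 to 68 for miR-279 and 39 to 60 for miR-996, and the 5′ arms were not analysed here. RNAfold predicted a hairpin of 28 base pairs and -29.2 kcal/mol for miR-279 and a hairpin of 20 base pairs and -24.4 kcal/mol for miR-996, and 18 of the 22 mature bases were paired in each. No annotation of this genome build was used, so whether the cluster lies in a gene, an exon or an intron is not given.

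No other miRNA of the table was near the cluster. Of the 6 other rows on the scaffold the nearest, a predicted miRNA without a family name (MC1017), lay 1947964 bases away. miR-34, known in Drosophila for a role in the ageing brain, lay 3621730 bases away on the plus strand. The relatives miR-279a (Group9.5:360079-360148, minus strand), miR-279b (Group15.6:5457615-5457693, minus strand) and miR-279c (Group2.4:365840-365914, plus strand) were also 3′-arm miRNAs of 22 bases.

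The values are whole numbers that were treated as normalized reads, because their column sums follow the miRNA share of each library and not its number of miRNA reads. This is an inference, and the study's text speaks of raw counts for the deposit. If the inference is wrong, the levels as deposited also carry the sequencing depth of each library. The reads behind a value were not recovered, so its counting error is unknown, and every error below is the spread between pools. Counting each distinct sequence once, the column sums were 173255 to 233785 in the 3 late libraries and 220071 to 231005 in the 3 early ones. EQ2 stood apart, with a sum of 140733, or 62.4% of the mean of the other early libraries. Because the sums differ, levels are also given as a percentage of the column sum.

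miR-279 was a moderately abundant larval miRNA at both stages. It had 501, 734 and 741 normalized reads in LQ1, LQ3 and LQ4, against 577, 594 and 755 in EQ1, EQ3 and EQ4, and EQ2 had 362. The ranges of late and early libraries overlapped, LQ1 being the low late library and EQ4 the highest of all. It ranked 28 to 31 among the 111 sequences in late libraries and 25 to 30 in the 4 early ones. The means were 659 ± 137 in late-instar and 642 ± 98.2 in early-instar larvae (SD, n = 3 each).

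The levels of miR-279 in the 2 instars could not be told apart. The log2 fold change, late over early, was 0.02 ± 0.25 (SE), with a 95% interval of -0.50 to 0.55 that corresponds to a fold of 0.706 to 1.46 on the log2(value + 20) scale (limma, adjusted p = 0.943). On the values as deposited, only 2 of the 97 distinct sequences tested had a smaller absolute log2 fold change, the median of all being -0.14. The interval still leaves room for a change of up to these folds in either direction. The sign of this difference turned to minus without LQ3 (-0.06), LQ4 (-0.07), EQ1 (-0.04) or EQ3 (-0.02), and stayed far inside the interval. Scaling to the column sums raised the log2 fold change to 0.18, median-ratio scaling to 0.23 and including EQ2 to 0.22. The rank of miR-279 among the sequences was not taken under these settings.

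miR-996, the neighbour, was the minor product, with 5.24% to 13.4% of the cluster's summed reads over the 7 libraries. It had 36, 73 and 41 normalized reads in LQ1, LQ3 and LQ4, against 72, 45 and 76 in EQ1, EQ3 and EQ4, and EQ2 had 56. LQ1 and LQ4 were below every early library, whereas LQ3 lay among the highest, so the ranges overlapped. Its rank was 57 to 62 in late and 52 to 65 in early libraries.

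The means of miR-996 were 50.0 ± 20.1 in late-instar and 64.3 ± 16.9 in early-instar larvae (SD, n = 3 each). The log2 fold change was -0.28 ± 0.27 (SE), with an interval of -0.84 to 0.27, or a fold of 0.560 to 1.20 on the log2(value + 20) scale (limma, adjusted p = 0.495). Its size rests on the added 20, being -0.39 with 1 added and -0.135 with 100, and neither passed the test. On the values as deposited, a smaller absolute log2 fold change was found for 38 of the 97 sequences. Leaving out LQ3 brought the log2 fold change to -0.51 and leaving out LQ1 to -0.14, and neither value passed the test (adjusted p = 0.127 and 0.742).

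**Figure D1:**
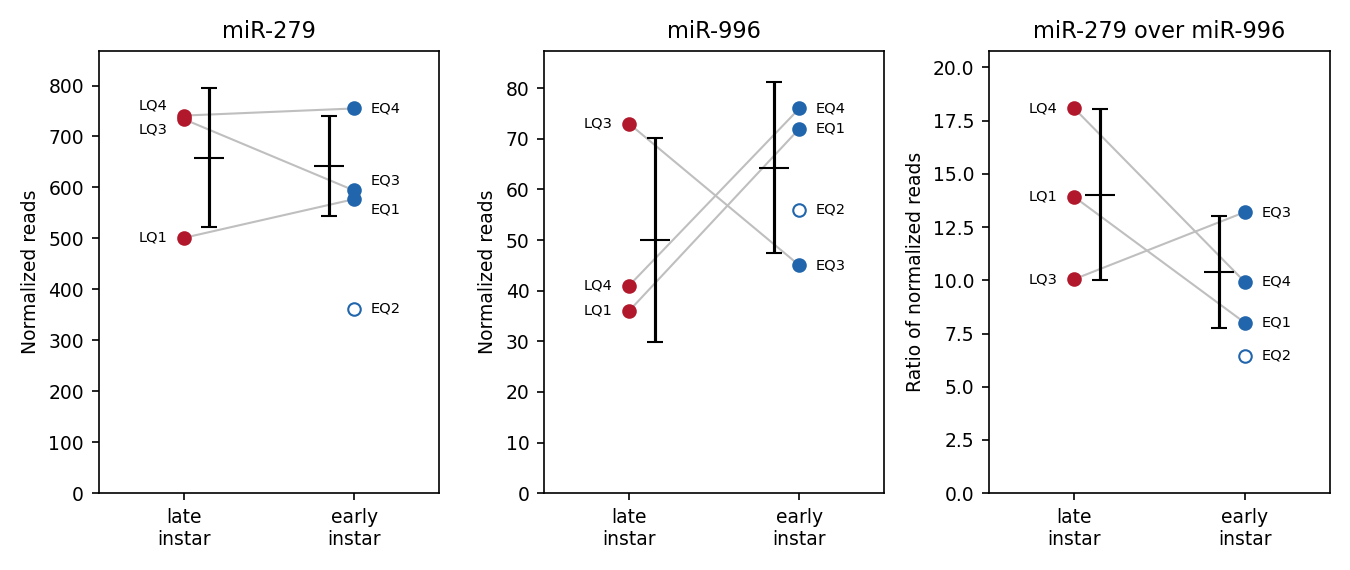
Normalized reads of miR-279 and of miR-996 and the ratio of miR-279 to miR-996 in each library, late instar on the left and early instar on the right of each panel. Filled points are the libraries compared, open points EQ2, grey lines join libraries of equal number, and black bars give the mean and SD of 3 libraries. The late and early points overlap in every panel, and LQ3 and EQ3 run against the other numbers for miR-996.

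Neither member was therefore among the miRNAs called as changed with instar. The background was high: 43 of 100 rows tested, or 43%, passed the adjusted p threshold of 0.05, with 16% higher and 27% lower in late-instar larvae. Of the 2 members 0 passed (limma), and 0 had an unadjusted p under 0.05. The ranges of the 3 late and the 3 early libraries did not overlap in 48.8% of the 123 rows, and in 0 of the 2 members. The criterion of the study is an offset fold change between the nearest ends of the 2 ranges after adding 20, taken only where the ranges do not overlap. Both members were therefore set to a log2 value of 0, which adds nothing to the overlap itself. Of the 123 rows, 9.76% reached 1. Permuting the libraries (exact test, two-sided, on the means) returned p = 1 for miR-279 and p = 0.3 for miR-996, where 0.1 is the smallest p that 3 libraries against 3 can give.

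**Figure D2:**
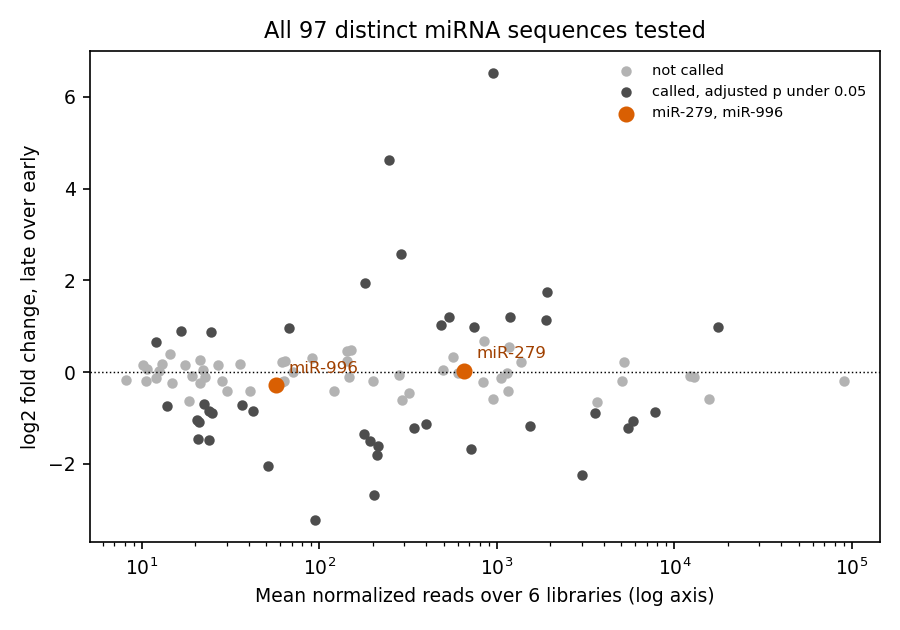
Log2 fold change (late over early instar, vertical axis) against the mean of normalized reads over the 6 libraries compared (horizontal log axis) for the 97 distinct sequences tested, with dark points for an adjusted p under 0.05. miR-279 lies on the zero line at 0.02 and miR-996 slightly under it at -0.28. Near the level of each, some sequences moved much further (miR-252b, 0.98, and miR-263b, -2.04) and others little (miR-279a, -0.03, and miR-932, -0.23).

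As a share of all miRNA reads in the table the members also overlapped between instars. miR-279 made up 0.289%, 0.314% and 0.367% of the column sum in LQ1, LQ3 and LQ4, against 0.256%, 0.257% and 0.343% in EQ1, EQ3 and EQ4 (EQ2, 0.257%). The mean share was 0.323% ± 0.0397 in late and 0.285% ± 0.050 in early libraries (SD, n = 3 each), a difference of 0.0379 percentage points (exact permutation test, p = 0.3). Single libraries weighed on this difference, which was 0.0162 without LQ4, 0.0232 without EQ1, 0.0238 without EQ3 and 0.0668 without EQ4. On this scale the early libraries other than EQ4 were almost equal, and all 3 late ones were above them.

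miR-996 made up 0.0208%, 0.0312% and 0.0203% of the sum in LQ1, LQ3 and LQ4, against 0.0319%, 0.0195% and 0.0345% in EQ1, EQ3 and EQ4 (EQ2, 0.0398%). The mean share was 0.0241% ± 0.00617 in late and 0.0287% ± 0.00805 in early libraries (SD, n = 3 each; exact permutation test, p = 0.6). The difference of -0.00455 percentage points ran from -0.00914 without EQ3 to -0.00161 without EQ4 when each library was left out in turn. EQ2, whose column sum was the lowest, thus had the highest share of miR-996 of the 7 libraries.

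The study paired the stages within colonies, and libraries of equal number were taken as such pairs, although the colony names given for some of them differ between the study's lists. All changes between libraries of equal number are on the log2(value + 20) scale. The added 20 makes those of miR-996, whose values are low, smaller than the plain values would give. For miR-279 the log2 change, late over early, was -0.20 for number 1, 0.30 for number 3 and -0.03 for number 4. Scaled to the column sums the same changes were 0.17, 0.28 and 0.09, so that the direction within numbers 1 and 4 depended on the scaling. For miR-996 the changes were -0.72, 0.52 and -0.65, and scaled to the sums -0.45, 0.49 and -0.57. Between LQ3 and EQ3 miR-996 was thus higher in the late library, and for numbers 1 and 4 it was lower, on either scale.

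The relation between the neighbours was measured within each library, where library size cancels out of the plain ratio. The ratio of miR-279 to miR-996 was 13.9, 10.1 and 18.1 in LQ1, LQ3 and LQ4, against 8.01, 13.2 and 9.93 in EQ1, EQ3 and EQ4, and it was 6.46 in EQ2. miR-279 exceeded miR-996 in all 7 libraries, and the spread of the ratio within an instar was as wide as the gap between instars. The miR-279 values in these ratios carry the uncertain split of reads between miR-279 and miR-279a. The log2 ratio, with 20 added to each value, was 3.29 ± 0.32 in late and 2.98 ± 0.27 in early libraries (SD, n = 3 each), a difference of 0.31 that did not pass the test (exact two-sided permutation test, p = 0.4). The difference was 0.14 without LQ4, 0.17 without EQ1 and 0.47 with EQ2 included. With 1 added instead, the difference was 0.41 (exact permutation test, p = 0.2). miR-996 accounted for 7.0% ± 1.92 of the cluster's summed reads in late and 9.09% ± 2.03 in early libraries (SD, n = 3 each).

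Across the 7 libraries the 2 neighbours did not follow each other closely. Pearson's r of their log2(value + 20) levels was 0.272 and Spearman's rho 0.429, given as a description of 7 libraries that share their scaling. Of the 96 other sequences compared, miR-996 took place 54 in likeness to miR-279, and miR-279 place 37 in likeness to miR-996. After scaling to the column sums r was -0.17. Without the 2 libraries in which miR-279 was farthest from its median (EQ2 and EQ4), r was 0.337, and without those for miR-996 (LQ1 and EQ4) it was -0.05.

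On the values as deposited, the closest pattern to that of miR-279 was that of miR-3477 (r = 0.953 over 7 libraries). After scaling, the r of miR-3477 was 0.836, below the 0.848 of miR-276-5p. All sequences were ranked on the deposited values only, so the closest pattern after scaling is not given. miR-3477 had 935, 1106 and 1372 normalized reads in LQ1, LQ3 and LQ4, against 1008, 1126 and 1306 in EQ1, EQ3 and EQ4 and 697 in EQ2. Like miR-279, it was highest in LQ4 and EQ4 and lowest in EQ2 on the values as deposited. EQ2 was also the library with the lowest column sum. Scaled to the sums, miR-279 was no longer lowest in EQ2, with 551 there against 548 in EQ1. The next were miR-276-5p (r = 0.945), whose values of 3 to 25 are near the floor, miR-279a (r = 0.903), miR-316-3p (r = 0.870) and miR-750 (r = 0.854), and after scaling their r lay between 0.640 and 0.848. How far reads shared between miR-279 and miR-279a set their r was not tested.

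The closest patterns to that of miR-996 were those of miR-137 (r = 0.817), miR-9a-5p (0.811), miR-993-5p (0.760), miR-13b (0.733) and miR-33 (0.706). The values of miR-137 (5 to 18) and miR-33 (3 to 15) are near the floor. After scaling the correlations were 0.604, 0.794, 0.751, 0.659 and 0.699. The 2 members thus had no name in common among their 5 closest. miR-993-5p and miR-13b were lower in late-instar larvae (log2 fold changes of -1.50 ± 0.31 and -1.60 ± 0.30, SE; limma, adjusted p = 0.000485 and 0.000136). In both, every late library lay below every early one. miR-996 did not pass the test, and its order of libraries differed, with LQ3 above EQ1, EQ2 and EQ3.

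Over the 7 libraries of both instars together, both members varied less than the median miRNA. Such a coefficient also holds any difference between instars, so it does not measure the spread between pools alone. The coefficient of variation of miR-279 over the 7 libraries was 24.0%, and 9 of 97 sequences had a lower coefficient, the median being 44.6%. For miR-996 it was 29.4%, with 24 sequences lower. Within LQ1, LQ3 and LQ4 alone the coefficient of miR-996 was 40.1%, and within EQ1, EQ3 and EQ4 it was 26.2% (25.6% and 28.1% after scaling). Scaled to the column sums, the coefficients over the 7 libraries were 15.2% for miR-279 (8 sequences lower) and 28.5% for miR-996 (23 lower), against a median of 42.8%. Coefficients under the median were not particular to the members. Those of miR-279a were 24.6% and, scaled, 15.0%, and those of miR-279c were 40.0% and, scaled, 32.3%. The highest library exceeded the lowest by 2.09 times for miR-279 and 2.11 times for miR-996.

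The 3 relatives with the same seed were next compared, since a target that recognizes the seed alone could be served by any of them. miR-279a had 519, 647 and 632 normalized reads in LQ1, LQ3 and LQ4, against 526, 677 and 636 in EQ1, EQ3 and EQ4, and 280 in EQ2. Without EQ2 the libraries of equal number differed by a log2 change of -0.06 to -0.01 with 20 added, and scaled to the column sums by -0.08 to 0.35. The log2 fold change was -0.03 ± 0.24 (SE; limma, adjusted p = 0.933). Its sign turned with EQ2 included (0.24), with scaling to the column sums (0.13), and without LQ1 (0.07) or EQ3 (0.04). The ratio of miR-279 to miR-279a lay between 0.877 and 1.29 in the 7 libraries, and how far reads shared between them set this ratio was not tested.

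miR-279c was the most variable of the abundant relatives. It had 326, 964 and 660 normalized reads in LQ1, LQ3 and LQ4, against 567, 425 and 430 in EQ1, EQ3 and EQ4, and 417 in EQ2. LQ3 and LQ4 lay above every early library and LQ1 below every one. The log2 fold change was 0.33 ± 0.31 (SE), with an interval of -0.31 to 0.97 (limma, adjusted p = 0.495). Without LQ3 it was -0.01, and without LQ1 it was 0.74 (adjusted p = 0.0524).

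miR-279b was near the floor. It had 3, 0 and 0 normalized reads in LQ1, LQ3 and LQ4, against 6, 9 and 7 in EQ1, EQ3 and EQ4, and 2 in EQ2. The ranges of 3 against 3 did not overlap, as in 48.8% of all rows, but the value of EQ2 fell within the late range. It stayed under the filter on low values and was not tested across miRNAs, and an exact permutation test gave p = 0.1, the smallest possible.

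**Figure D3:**
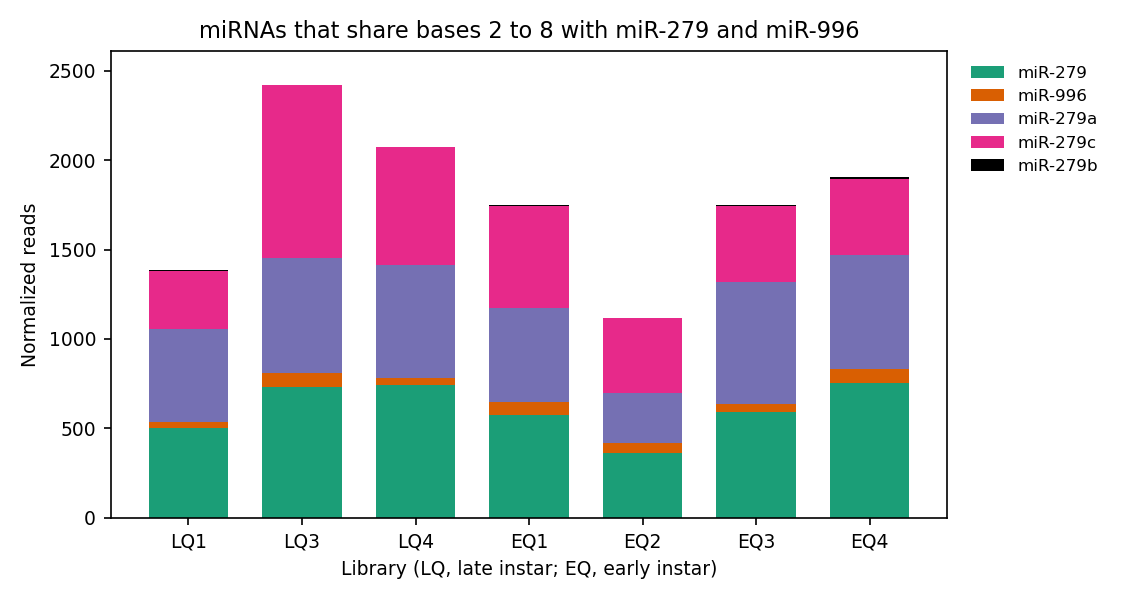
Stacked bars of normalized reads of the 5 sequences with the seed GACTAGA in each library, late instar (LQ) on the left and early instar (EQ) on the right. miR-279, miR-279a and miR-279c fill most of every bar, miR-996 is a thin band of 36 to 76 reads, and the height runs from 1117 in EQ2 to 2418 in LQ3.

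The summed reads of the seed family also overlapped between instars. The family summed to 1385, 2418 and 2074 normalized reads in LQ1, LQ3 and LQ4, against 1748, 1750 and 1904 in EQ1, EQ3 and EQ4, and 1117 in EQ2. That was 0.954% ± 0.134 of the column sum in late and 0.799% ± 0.0577 in early libraries (SD, n = 3 each; exact permutation test, p = 0.2). Over the 7 libraries miR-279 made up 30.4% to 39.7% of the family, miR-279a 25.1% to 38.7%, miR-279c 22.6% to 39.9% and miR-996 1.98% to 5.01%. The share of miR-996 in the family was 2.53% ± 0.524 in late and 3.56% ± 0.859 in early libraries (SD, n = 3 each; exact permutation test, p = 0.3).

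A list of 20 miRNAs with known roles in the nervous system, mostly from Drosophila, was set beside the cluster. Of these names 13 were matched, giving 16 distinct sequences, and miR-124, miR-190, miR-210, miR-219, miR-263a, miR-929 and miR-1000 were not analysed here. Of 15 sequences tested, 2 were higher and 4 lower in late-instar larvae and 9 did not pass, which is 6 called, against 41 of all 97 distinct sequences (42.3%). The median log2 fold change of the list was -0.14, the same as that of all sequences tested.

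The 2 that rose were let-7, which in flies times the remodelling of the neuromuscular system at metamorphosis, and miR-8, a regulator of atrophin in neurons and of growth through the fat body. let-7 had 1950, 2776 and 3075 normalized reads in LQ1, LQ3 and LQ4, against 896, 1387 and 1229 in EQ1, EQ3 and EQ4 (EQ2, 708; log2 fold change 1.13 ± 0.26, SE; limma, adjusted p = 0.00122). miR-8 had 19120, 24678 and 26133, against 10485, 11954 and 12973 in the same order (EQ2, 7170; 0.97 ± 0.25; limma, adjusted p = 0.00241). For both, every late library lay above every early library.

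The 4 that fell were miR-263b, which protects sensory bristle cells in flies, miR-7, which acts in photoreceptor differentiation, bantam, a growth-promoting miRNA that also acts on dendrites, and the 3′ arm of miR-9a, whose gene restrains sensory organ precursors. miR-263b had 4, 12 and 5 normalized reads in LQ1, LQ3 and LQ4, against 71, 148 and 68 in EQ1, EQ3 and EQ4 (EQ2, 42; log2 fold change -2.04 ± 0.28, SE; limma, adjusted p = 2.95e-06). miR-7 had 178, 368 and 198, against 533, 628 and 473 (EQ2, 340; -1.13 ± 0.27; limma, adjusted p = 0.00174). bantam had 3028, 4289 and 4001, against 7389, 7515 and 8628 (EQ2, 4897; -1.06 ± 0.25; limma, adjusted p = 0.00122). The size of the miR-263b fold rests on the added 20, being -3.63 with 1 added and -0.85 with 100. In these 3 miRNAs the late libraries lay below EQ1, EQ3 and EQ4, and for miR-263b and bantam below EQ2 as well.

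The miR-9a-3p call was the least firm. It had 14, 40 and 22 normalized reads in late libraries LQ1, LQ3 and LQ4, against 48, 70 and 60 in EQ1, EQ3 and EQ4, and 23 in EQ2 (log2 fold change -0.84 ± 0.26, SE; limma, adjusted p = 0.0112). The call was lost with EQ2 included (log2 fold change -0.62, adjusted p = 0.0799), without LQ1 (-0.65, adjusted p = 0.0747) and without EQ3 (-0.74, adjusted p = 0.0616). It was kept with EQ2 included and all libraries scaled to the column sums (-0.64, adjusted p = 0.0247).

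The other 2 of the 3 most abundant sequences of the list did not pass. miR-9a-5p had 8672, 17147 and 12273 normalized reads in LQ1, LQ3 and LQ4, against 19808, 17482 and 18281 in EQ1, EQ3 and EQ4 (EQ2, 14030; log2 fold change -0.60 ± 0.27, SE; limma, adjusted p = 0.0775), and it passed without LQ3 (adjusted p = 0.0156). LQ3 was the highest late library for miR-9a-5p as it was for miR-996. miR-276-3p, needed for olfactory memory in flies, had 8465, 15418 and 13248, against 13687, 15735 and 10246 (EQ2, 8008; -0.12 ± 0.27; limma, adjusted p = 0.763), with a sign that turned under scaling to the column sums (0.04).

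**Figure D4:**
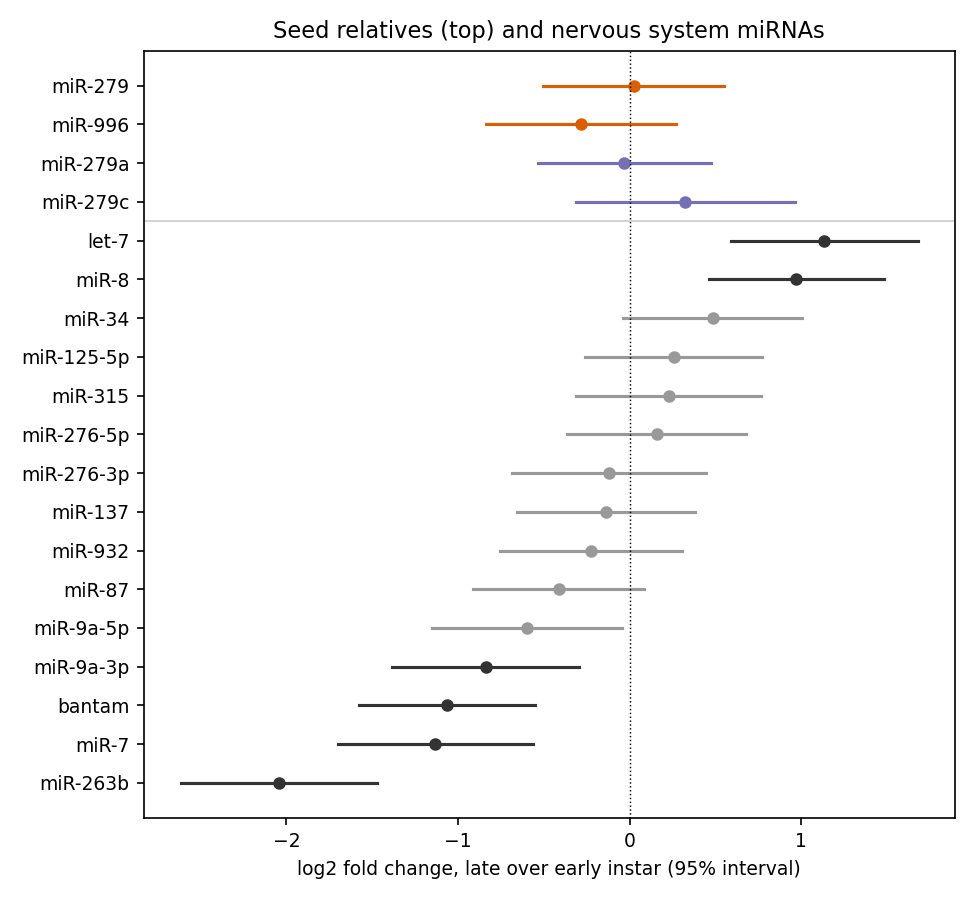
Log2 fold change, late over early instar, with its 95% interval, for the 4 seed relatives tested (top, members in orange) and the 15 tested sequences of the nervous system list (below, dark where the adjusted p is under 0.05). The intervals of all 4 seed relatives include 0, while let-7 and miR-8 lie to the right and miR-9a-3p, bantam, miR-7 and miR-263b to the left.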

How the data were processed

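The authors sequenced small RNAs of B. terrestris larvae (queen-destined, whole bodies), pooled within colony and instar, with a 3′ adapter carrying degenerate bases. Reads were adapter-trimmed, mapped with PatMaN (genome v.1.0 of B. terrestris), normalized to a fixed library total, and assigned to insect miRNAs of miRBase with up to 2 mismatches. The deposited value was treated as a score (reads normalized and rounded to integers). This was inferred from the column sums, whereas the study's text calls the deposit raw counts, and the scale is not stated with the table. Of the per-sample columns 7 were used, mapped by title, and 7 belonging to another series were not used, so castes were not compared.

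limma 3.58.1 (R 4.3.3) was fitted to log2(value + 20), without a block, for the 100 rows that reached 10 in 3 or more libraries, and p-values were adjusted over these rows by the method of Benjamini and Hochberg. For low values the added 20 makes fold changes too small. Sequences listed for several precursors were counted once where the text says distinct. Exact two-sided permutation tests, correlations and coefficients of variation used scipy 1.17.1, numpy 2.4.6 and pandas 2.3.3 (Python 3.11.15). Hairpins were folded with RNAfold 2.7.2, and matplotlib 3.10.9 drew the figures. Simulated data were used to test the limma step beforehand.

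Pools came from separate colonies, and early- and late-instar pools with 1 number were taken as 1 colony from the study's account of pairing, although some colony names differ between its lists. The deviations of libraries with equal numbers correlated at 0.0242 (number 1), 0.0786 (number 3) and 0.456 (number 4) over 97 sequences, and those of unequal numbers at -0.436 to 0.338.

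Named were the members, all sequences with their bases 2 to 8, rows of the same scaffold, the 5 sequences most like each member over 7 libraries, and, of a list of 20 nervous system miRNAs, those called and the 3 most abundant. The members and lists were chosen with earlier results of these data known. Alternatives were EQ2 included, pseudocounts of 1 and 100, the replicate number as a block, no filter, scaling to the column sum or by median ratios, each sequence once, a sum without the most abundant miRNA, other offsets, and each library left out in turn. EQ2 included together with scaling, and the alternatives for miR-279a, miR-279c and the listed miRNAs, were added after the data were seen.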

Additional observations from a re-analysis of the deposited data

Results flagged for a closer look

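In 3 of 19 measures tested over the 4 early libraries, 1 library stood far from the other 3. Chance gives about 1 in 20 for a single measure. The 19 were related measures of the same libraries, so their count cannot be set against that rate. The share of miR-279 in the column sum was 0.343% in EQ4 and between 0.256% and 0.257% in EQ1, EQ2 and EQ3, a gap of 0.986 of the range. For miR-279c, EQ1 had 567 normalized reads and the other early libraries 417 to 430, a gap of 0.913. The sum of the distinct sequences was 140733 in EQ2, against 220071 to 231005 in the other early libraries, a gap of 0.879. EQ2 is the early library that the study excluded after checking its normalization.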

How the results depend on the processing

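Under all 15 alternatives neither member passed the threshold: the log2 fold change of miR-279 ran from -0.07 to 0.23 (adjusted p = 0.415 to 0.960) and that of miR-996 from -0.51 to -0.14 (adjusted p = 0.127 to 0.742). Leaving out each library in turn gave -0.0688 to 0.205 for miR-279, with a minus sign without LQ3, LQ4, EQ1 or EQ3, a range of -0.133 to 0.0667 for miR-279a, of -0.0142 to 0.740 for miR-279c (below 0 without LQ3) and of -0.297 to 0.134 for miR-276-3p (above 0 without LQ1 or EQ3). The sign of miR-279a also turned with EQ2 included (0.237), with scaling to the column sums (0.126), with median-ratio scaling (0.172) and with EQ2 and column sums together (0.233), and that of miR-276-3p under the same 4 settings (0.0579, 0.0447, 0.092 and 0.05). The cause was not tested, but none of these values passed the threshold. The median log2 fold change of all sequences, -0.14, was 0.11 higher with column-sum scaling or EQ2 and 0.15 higher with median ratios, and 0.12 lower without LQ3. The call of miR-9a-3p was also lost with a pseudocount of 100 (adjusted p = 0.0596). With the replicate block, pairing libraries of equal number, 43 rows passed as without it, miR-279 had an adjusted p of 0.923 and miR-996 of 0.450, the ratio of the members gave p = 0.5 by exact sign flips, and no call named here changed. The count of called rows was 33 to 47 over all settings. With 3 pools a group and no read totals, changes within the intervals given cannot be seen.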

Other observations

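The 3′ arm of miR-125, another miRNA of the nervous system list, was named after its values were seen. It had 8, 5 and 15 normalized reads in LQ1, LQ3 and LQ4, against 1, 1 and 0 in EQ1, EQ3 and EQ4, and 2 in EQ2. It stayed under the filter on low values and was not tested.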
